A study of Mus musculus with 8 samples.

Results

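Small nucleolar RNAs (snoRNAs) and small Cajal body RNAs were followed through the step from meiotic to post-meiotic male germ cells, in wild-type (WT) mice and in mice without H3.3B, the histone H3 variant encoded by H3f3b. Members were all genes whose name begins with Snora, Snord or Scarna in either case, and those with a mean of 10 or more reads over the 8 libraries were reported. The names matched 473 of 29880 genes, namely 324 H/ACA (Snora), 121 C/D (Snord) and 28 Cajal body (Scarna) genes. Of these, 70 reached the minimum: 42 H/ACA, 18 C/D and 10 Cajal body genes. All 70 had enough reads for the test. The members just inside the minimum were SNORA40 on chromosome 12 and Snord72, both with a mean of 10.0 reads. Just outside lay Snord111 with 9.625 and Snord19 with 9.5 reads. Among the 403 genes under the minimum only 21 could be tested, and they are not described further.

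The snoRNAs are stable non-coding RNAs that work in the nucleolus as guides for the modification of other RNAs. H/ACA snoRNAs pair with their target and direct the enzyme dyskerin (Dkc1) to turn uridine into pseudouridine. C/D snoRNAs direct fibrillarin (Fbl) to methylate ribose. Cajal body RNAs carry the same boxes, 1 kind or both, and guide the modification of spliceosomal RNAs in the Cajal body. A few members, such as the SNORA73 (U17) and Snord14 (U14) families, take part in the cutting of the ribosomal RNA precursor. Most vertebrate snoRNAs are not transcribed on their own: they are trimmed out of the introns of other genes, called hosts, many of which encode ribosomal proteins or nucleolar factors.

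The 8 libraries form 4 groups of 2: WT meiotic, H3f3b KO meiotic, WT post-meiotic and H3f3b KO post-meiotic cells. By genotype the WT animals are H3.3BWT/WT :Actin Cre WT and the KO animals H3.3BKO/KO :Actin Cre WT, so both carry the Actin Cre WT label. All mice are C57BL/6 between 3 and 6 months of age, and by the labels the RNA of a library comes from the seminiferous tubules of 1 mouse. Tubule cells were suspended in medium with 10 mM sodium butyrate and then sedimented through an albumin gradient of 2 to 4%, the collected fractions were pooled by stage, and the post-meiotic fraction holds mainly round spermatids with a small share of elongated ones. Whether a meiotic and a post-meiotic library of the same number share a mouse is not given, and p-values measure the spread between 2 libraries a group.

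Gene counts ran from 57853283 to 92836630 reads per library, and members took 15378 to 49506 of them, or 0.0254 to 0.0533% of a library. Reads on H3f3b ran from 12130 to 36885 in the WT and from 407 to 1107 in the KO libraries. Marker sums followed the labels of stage: 8 meiotic markers (Sycp1, Sycp3 and others) gave 2450 to 2900 CPM (reads on a gene per 1000000 of the library) in meiotic and 616 to 746 CPM in post-meiotic libraries, and 8 spermatid markers (Prm1, Tnp1 and others) 7260 to 10300 and 26400 to 29700 CPM. All 8 spermatid markers rose in the WT transition. Of the 8 meiotic markers 6 fell and 2 rose, Ccna1 (log2 change 0.45) and Dmc1 (0.57), which rose in KO cells too (0.36 and 0.25). Most lists of somatic markers moved with the groups as well. The sum of 6 leukocyte markers was 6.28 to 6.42 CPM in WT meiotic, 10.5 to 12.6 in KO meiotic, 32.6 to 33.1 in WT post-meiotic and 57.2 to 67.9 in KO post-meiotic libraries, and all 6 rose in the WT transition. Of 5 peritubular markers the sum was 17.1 to 29.5 CPM over the meiotic libraries, 95.6 to 128 CPM in WT post-meiotic and 181 to 240 CPM in KO post-meiotic libraries. Of 4 red cell markers it was 2.33 to 2.84 CPM over the meiotic libraries, 11.0 to 11.5 in WT and 29.1 to 31.4 in KO post-meiotic libraries. Leydig cell markers went the other way, with a sum over 6 genes of 207 to 252 CPM in WT meiotic, 140 to 217 in KO meiotic, 17.9 to 27.1 in WT post-meiotic and 34.6 to 35.2 in KO post-meiotic libraries. The sum of 5 Sertoli markers was 6.5 to 7.36 CPM in WT meiotic and 7.34 to 7.78 in WT post-meiotic libraries, where 0 passed the test. In KO it was 8.42 to 8.49 and 11.1 to 13.1 CPM. Of 4 endothelial markers it was 21.5 to 24.9 CPM over the meiotic and 38.3 to 45.5 over the post-meiotic libraries, and 2 rose in WT. Of 5 spermatogonial markers, which are germ cell genes, it was 84.1 to 105 and 30.8 to 39.4 CPM. No marker of these lists was at 0 in every library. Their part in the results below was not tested.

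The sequences show what the classes share. In the first 20 bases of the gene, on its own strand, the C box TGATGA was present in 12 of 18 C/D members (66.7%), against 1 of 42 H/ACA members (2.38%) and 0.429% of the 29143 other genes. The D box CTGA was present in the last 20 bases of 18 of 18 C/D members (100%), of 3 H/ACA members (7.14%) and of 8.45% of other genes. The trinucleotide ACA was present in the last 8 bases of 37 H/ACA members (88.1%), 6 C/D members (33.3%) and 11.7% of other genes, and where CTGACA occurs the last A of the D box is also the first of ACA. Of the 10 Cajal body genes 5 held both the C and the D box and 3 held ACA. On the opposite strand the C box was found in none of the 70 members. Sequences were read from the mm9 (NCBIM37) genome, the build of the counts. The first pairs below are members of 1 name family at different places whose levels went apart between stages. The last pair lie in introns of the same gene, Taf1d, and differ in class. Capitals mark ACA in H/ACA members and the C and D boxes in SNORD5, where they were found. No ACA was found in the last 8 bases of SNORA70 in Csda.
SNORA4 in 1700012A16Rik, chr1:155287209-155287348, plus strand: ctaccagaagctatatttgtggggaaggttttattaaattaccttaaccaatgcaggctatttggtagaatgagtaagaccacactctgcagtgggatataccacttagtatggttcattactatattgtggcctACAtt
SNORA4 in Eif4a2, chr16:23111690-23111828, plus strand: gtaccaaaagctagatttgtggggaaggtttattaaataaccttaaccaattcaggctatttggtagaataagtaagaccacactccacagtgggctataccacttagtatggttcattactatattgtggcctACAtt
Snora73a in Snhg3, chr4:131908690-131908894, minus strand: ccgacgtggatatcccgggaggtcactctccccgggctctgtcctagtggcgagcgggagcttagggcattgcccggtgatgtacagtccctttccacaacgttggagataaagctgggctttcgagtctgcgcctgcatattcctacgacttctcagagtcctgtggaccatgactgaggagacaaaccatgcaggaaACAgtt
Snora73b in Snhg3, chr4:131908237-131908441, minus strand: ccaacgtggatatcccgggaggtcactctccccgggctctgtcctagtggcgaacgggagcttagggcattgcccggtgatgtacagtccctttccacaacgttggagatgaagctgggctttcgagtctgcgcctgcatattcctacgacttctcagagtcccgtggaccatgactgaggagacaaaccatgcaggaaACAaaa
SNORA70 in Csda, chr6:131330291-131330424, minus strand: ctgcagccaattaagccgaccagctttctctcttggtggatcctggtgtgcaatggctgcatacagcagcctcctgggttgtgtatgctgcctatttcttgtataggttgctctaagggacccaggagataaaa
SNORA70 in Rg9mtd1, chr16:56035866-56036000, minus strand: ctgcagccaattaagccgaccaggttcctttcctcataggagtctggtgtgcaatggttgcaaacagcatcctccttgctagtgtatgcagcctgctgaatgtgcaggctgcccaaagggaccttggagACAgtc
SNORD5 in Taf1d, chr9:15118518-15118588, plus strand: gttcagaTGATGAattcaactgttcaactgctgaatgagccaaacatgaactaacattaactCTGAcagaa
SNORA32 in Taf1d, chr9:15120933-15121032, plus strand: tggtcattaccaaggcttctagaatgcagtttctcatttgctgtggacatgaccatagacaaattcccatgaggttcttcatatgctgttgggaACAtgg

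The copies differ in sequence to unequal degrees. The SNORA4 pair shared 130 of 139 bases (93.5%), Snora73a and Snora73b 198 of 205 (96.6%) and the SNORA70 pair 103 of 134 (76.9%). The authors kept only reads that align to 1 place, so a read of 50 bases counts only where those bases occur once in the genome. Every 50-base stretch of both SNORA4 and both SNORA70 copies was unique, and 92.9% of the stretches of Snora73a and of Snora73b. In all, 56 of the 70 members were unique throughout. At 4 members fewer than 50% of the stretches were unique, SNORA25 being the extreme with 0.0%, so a read lying wholly within it aligns to more than 1 place.

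Counts among the members were very uneven. Scarna10, a 325-base gene in an intron of the condensin gene Ncapd2, known in humans as a guide of U5 spliceosomal RNA, took 66.6% of all reads on members. The 10 Cajal body genes together took 89.8%, the H/ACA genes 7.85% and the C/D genes 2.33%. The median gene length was 204.5 bases among the Cajal body, 136 among the H/ACA and 77.5 among the C/D members, and the median of the mean count was 520.9, 20.7 and 17.1 reads. Scaled per kb of gene, Scarna10 stood at 818 CPM per kb over the 8 libraries and was followed by Scarna9 with 233, Scarna2 with 90.7, SCARNA6 with 64.1 and Scarna13 with 33.8. Of the H/ACA genes SNORA32 in Taf1d stood highest with 60.7 CPM per kb, ahead of Snora73b with 24.0, SNORA12 with 20.6, SNORA73 on chromosome 9 with 10.9 and SNORA79 on chromosome 12 with 8.25. The C/D genes began lower, with Snord17 at 15.3, SNORD94 at 12.3, SNORD70 at 5.03, Snord49b at 4.66 and Snord14a at 4.48 CPM per kb. A member with fewer than 50 reads on average is thus the rule, and 53 of the 70 were of this kind.

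**Figure D1:**
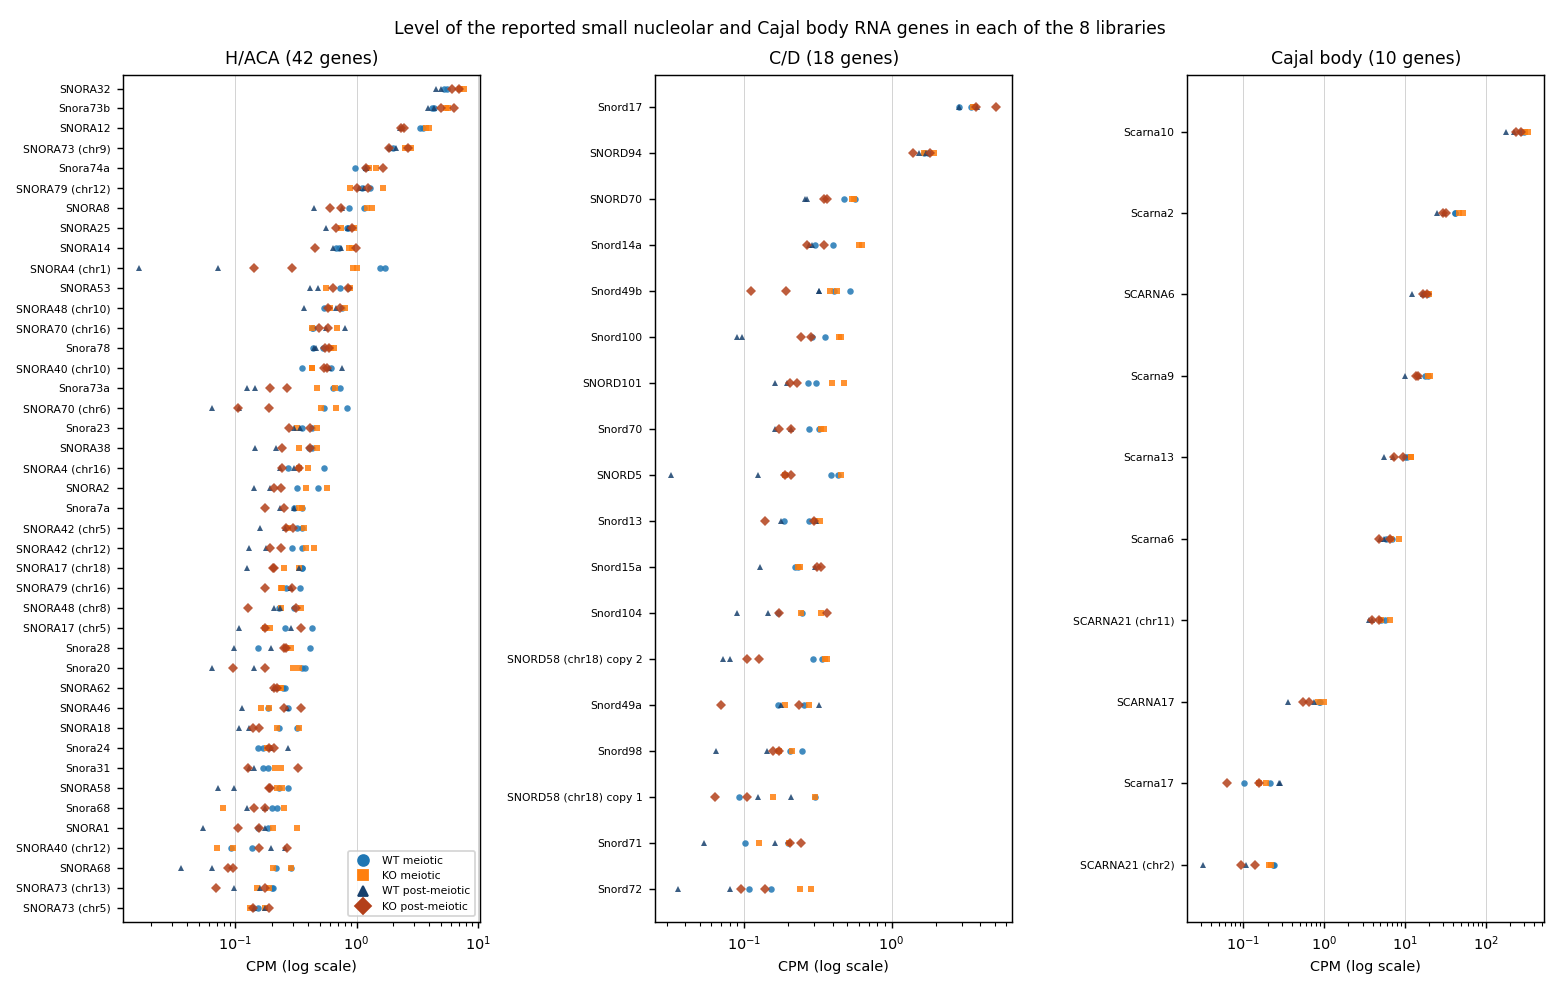
Level of each of the 70 members (rows, sorted by mean within class) as CPM on a log axis, with 1 point for each of the 8 libraries and a colour and shape for each group. Scarna10 lies above 100 CPM in every library, most H/ACA and C/D genes lie under 1 CPM, and the WT post-meiotic points of SNORA4 on chromosome 1 stand far to the left of its meiotic points.

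During the WT transition from meiotic to post-meiotic cells members fell or did not pass the test, and none rose. An adjusted p under 0.01 in edgeR was taken as passing. Of 70 members 18 passed as lower and 0 as higher, where 32.4% of all genes tested were lower and 29.6% higher. At an unadjusted p under 0.05 there were 26 lower and 1 higher, 27 of 70 where 72.7% of all genes had such a p, and DESeq2 passed 10, all lower. With the additional limit of a log2 change beyond 1, 12 members were lower and 0 higher (all genes 14.5% and 11.0%). Without the limit on the log2 change the share of lower members was below the background, and with it slightly above. The share of higher members was below the background by both counts. By sign 58 of 70 log2 changes were below 0 and 12 above, with a median of -0.51, against a median of 0.01 over all genes. This was not shared by the 9 members for which no host gene was found (rule given below). Of these 4 were below 0 and 5 above, with a median of 0.07, and 2 passed as lower. Of the 61 members with a host 54 were below 0, with a median of -0.51. Members have few reads, and among 3646 other genes with a mean of 10 to 50 reads 324 passed as lower and 544 as higher, with a median log2 change of 0.26. The 53 members under 50 reads counted 13 lower and 0 higher, with a median of -0.59. All 12 decreases beyond 1 lay among these 53, and the 17 members with 50 or more reads ran from -0.74 to 0.16.

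The H/ACA class held 9 of the 18. SNORA4 in an intron of 1700012A16Rik on chromosome 1 had 111 and 92 reads in WT meiotic and 1 and 4 reads in WT post-meiotic libraries, which is 1.64 ± 0.105 against 0.0439 ± 0.0393 CPM (mean ± SD, n = 2), a log2 change of -5.21 ± 0.41 (SE, edgeR adjusted p = 4.75e-10). SNORA70 on chromosome 6 had 54 and 32 against 4 and 6 reads (log2 change -3.0 ± 0.44, edgeR adjusted p = 3.64e-06). Snora73a, a U17 copy that overlaps an annotated exon of its host Snhg3, had 47 and 38 against 9 and 7 reads (-2.32 ± 0.36, edgeR adjusted p = 8.92e-06). In each of these the post-meiotic libraries lay below every meiotic one, in KO as well as in WT. The best covered decrease was that of SNORA12 in Cwf19l1, with 216 and 210 against 143 and 133 reads, and it was modest (-0.56 ± 0.13, edgeR adjusted p = 0.000976). The other 5, SNORA68 on chromosome 13, Snora20, SNORA58, SNORA2 and SNORA38, fell by 1.23 to 2.26 on the log2 scale from meiotic counts of 14 to 31. The abundant SNORA32 and Snora73b did not pass, with log2 changes of -0.20 and -0.05, and the class median was -0.42.

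Among the 18 C/D genes 4 fell. SNORD5, in Taf1d, a cofactor of RNA polymerase I, had 28 and 23 reads in WT meiotic and 2 and 7 in WT post-meiotic libraries (log2 change -2.40 ± 0.55, edgeR adjusted p = 0.000658). The second copy of SNORD58 in the ribosomal protein gene Rpl17 had 19 and 20 against 5 and 4 reads (-2.02 ± 0.47, edgeR adjusted p = 0.000668), and Snord100 in Rps12 had 23 and 17 against 6 and 5 (-1.77 ± 0.44, edgeR adjusted p = 0.00128). SNORD70 lies in Nop58, which itself encodes a core protein of C/D particles, and had 37 and 28 against 16 and 15 reads (-0.99 ± 0.31, edgeR adjusted p = 0.00784), a call that held in 8 of 15 alternatives. The levels of the 2 most abundant C/D genes hardly differed between the stages. Snord17 had 3.16 ± 0.400 and 3.31 ± 0.649 CPM (log2 change 0.07 ± 0.17) and SNORD94 1.71 ± 0.083 and 1.63 ± 0.128 CPM (-0.06 ± 0.18). The class median was -0.60.

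Of the 10 Cajal body genes 5 fell in the WT transition. Scarna2, which has no host here and in humans is a guide of U2 RNA with a promoter of its own, went from 41.8 ± 0.0168 to 27.7 ± 3.70 CPM (log2 change -0.59 ± 0.08, edgeR adjusted p = 5.69e-06). Scarna13, also without a host, went from 10.4 ± 0.397 to 6.33 ± 1.16 CPM (-0.72 ± 0.13, edgeR adjusted p = 9.47e-05), and Scarna9 from 18.6 ± 1.15 to 12.4 ± 3.37 CPM (-0.58 ± 0.15, edgeR adjusted p = 0.00684). The copies of SCARNA21 fell too, from 366 and 296 to 246 and 201 reads in Chd3 on chromosome 11 (-0.49 ± 0.14) and from 15 and 14 to 2 and 6 reads in Fbxo3 on chromosome 2 (-1.76 ± 0.56), with edgeR adjusted p = 0.00378 and 0.00831. Scarna10 lay at 273 and 301 CPM in WT meiotic and at 224 and 181 CPM in WT post-meiotic libraries. Its log2 change of -0.50 ± 0.13 did not pass (edgeR adjusted p = 0.0157), though it passed in 10 of the 15 alternatives computed. SCARNA6 and Scarna6, both in Atg16l1, had -0.31 ± 0.12 and -0.28 ± 0.17, and SCARNA17 had -0.62 ± 0.28. Scarna17 was the only one of the 10 with a value above 0 (0.79 ± 0.46). WT post-meiotic replicate 2 was the lowest of the 8 libraries for 7 of the 10, namely Scarna10, Scarna2, SCARNA6, Scarna9, Scarna13, SCARNA17 and SCARNA21 on chromosome 11. Leaving it out moved Scarna9 to -0.33, a call that held there and in 9 of 15 alternatives in all, and lost the call of SCARNA21 on chromosome 11. The call of SCARNA21 on chromosome 2 held in 6 of 15, while Scarna2 and Scarna13 passed in all 15 alternatives. Summed over all members, the level was 431 ± 23.2 CPM in WT meiotic and 306 ± 43.3 CPM in WT post-meiotic cells, and without Scarna10 it was 144 ± 3.32 and 104 ± 13 CPM. In bulk samples fewer cells of a type and less RNA per cell cannot be told apart.

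The same step in KO cells gave the same direction. Of 70 members 13 passed as lower and 0 as higher (all genes 31.5% lower and 29.5% higher), and with a log2 change beyond 1 there were 8 lower and 0 higher (all genes 11.8% and 10.3%). DESeq2 passed 6. The median log2 change was -0.39 over all members, -0.22 in H/ACA, -0.69 in C/D and -0.50 in Cajal body genes, against 0.05 over all genes. The WT and KO transitions share no library. Of the 22 members that passed in either, 9 passed in both, 9 in WT alone and 4 in KO alone, and 51 of 70 had a log2 change below 0 in both (42.9% of all genes). The share of all genes that passed in both was not counted, so the overlap of 9 has no background here. SNORA4 on chromosome 1 went from 59 and 99 reads to 9 and 17 (log2 change -2.16 ± 0.31, edgeR adjusted p = 3.49e-06). SNORA70 on chromosome 6 went from 32 and 67 to 12 and 6 reads (-2.01 ± 0.38, edgeR adjusted p = 9.53e-05) and SNORA12 from 3.88 ± 0.146 to 2.39 ± 0.119 CPM (-0.70 ± 0.13, edgeR adjusted p = 6.44e-05). Scarna2 fell from 49.6 ± 3.24 to 31.1 ± 2.28 CPM (-0.67 ± 0.08, edgeR adjusted p = 1.09e-06). Those that passed in KO alone were SNORA8 (-0.93 ± 0.24), Snord49b (-1.43 ± 0.38), Snord14a (-1.0 ± 0.29) and SNORD101 (-1.03 ± 0.33). Of these SNORD101 passed in 3 of 15 alternatives and in none of the 8 fits that left out 1 library. Passing in 1 transition and not in the other is not a difference between genotypes, and the test of that difference is given with the comparison of KO and WT.

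**Figure D2:**
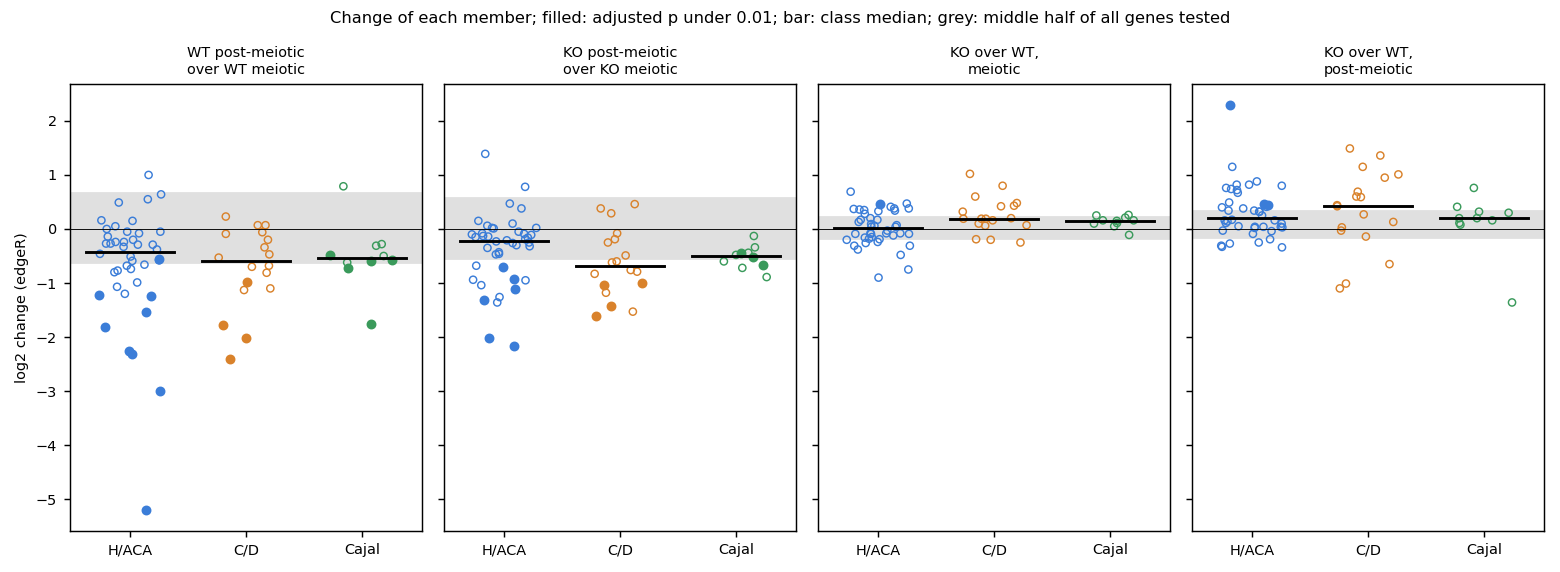
The log2 change of each member (circles, filled where the edgeR adjusted p was under 0.01) by class in the 4 comparisons, with the class median as a bar and the middle 50% of all genes tested as a grey band. The medians of the classes lie between -0.69 and -0.22 in both transitions and between 0.01 and 0.43 in KO over WT, and the filled points are all below 0 in the transitions.

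Few members differed between KO and WT cells. In meiotic cells 1 of 70 passed as higher and 0 as lower (all genes 8.98% higher and 8.55% lower), none passed with a log2 change beyond 1 (all genes 1.32% and 0.862%), and 7 had an unadjusted p under 0.05 (39.4% of all genes), of which 6 were higher. In post-meiotic cells 3 passed as higher and 0 as lower (all genes 12.4% and 11.6%), 1 passed as higher with a log2 change beyond 1 (all genes 2.19% and 0.852%), 14 had an unadjusted p under 0.05 (46.4% of all genes), of which 12 were higher, and DESeq2 passed 0. These shares are under the background. SNORA32 was the member that passed at both stages. Its level was 5.28 and 5.63 CPM in WT meiotic and 7.21 and 7.73 CPM in KO meiotic libraries (log2 change 0.46 ± 0.10, edgeR adjusted p = 0.00265). In post-meiotic cells it was 4.56 and 4.98 CPM in WT and 6.12 and 7.01 CPM in KO (0.46 ± 0.11, edgeR adjusted p = 0.00293), so that the groups did not overlap at either stage. Its host Taf1d had 0.05 and 0.03. Snora73b had 4.22 and 4.38 CPM in WT and 5.66 and 5.52 CPM in KO meiotic libraries (0.38 ± 0.12, edgeR adjusted p = 0.0247), and 4.36 and 3.93 against 4.98 and 6.36 CPM in post-meiotic libraries (0.45 ± 0.13, edgeR adjusted p = 0.00878). These calls are not firm. SNORA32 did not pass without either WT library of the stage or without KO replicate 2 of the stage, and by DESeq2 it did not pass in post-meiotic cells. Snora73b passed in 4 of 14 alternatives.

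Small positive values were common among members. The log2 change of KO over WT was above 0 in 45 of 70 members in meiotic cells (50.5% of all genes). In post-meiotic cells it was above 0 in 55 of 70 (54.3% of all genes), and at both stages in 36 (36.4% of all genes). The median was 0.11 and 0.26, against 0.00 and 0.04 over all genes. Among the 3646 other genes with a mean of 10 to 50 reads it was 0.05 and 0.18, with 53.6% and 62.6% above 0. For the 53 members under 50 reads the median was 0.05 and 0.32. Each of the 17 members with 50 or more reads was above 0 in meiotic cells, from 0.04 to 0.47, and 16 of them in post-meiotic cells. C/D genes had medians of 0.19 and 0.43, H/ACA genes 0.01 and 0.21, and Cajal body genes 0.15 and 0.20. Scarna10 had 273 and 301 CPM in WT and 304 and 337 CPM in KO meiotic libraries (log2 change 0.16 ± 0.13), and 224 and 181 against 235 and 272 CPM in post-meiotic libraries (0.32 ± 0.13), neither of which passed. Scaling by library totals alone moved the median of all genes by more than 0.1, to -0.125 in the WT transition and 0.14 in KO over WT of post-meiotic cells, so values of this size depend on the scaling.

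The effect of the KO differed between the stages for 1 member (all genes 1.68% higher and 0.921% lower, or 0.500% and 0.00490% beyond a log2 value of 1). SNORA4 on chromosome 1 had 1.71 and 1.56 CPM in WT and 0.935 and 1.00 CPM in KO meiotic libraries, a log2 change of -0.75 ± 0.22 that did not pass (edgeR adjusted p = 0.0131). In post-meiotic cells it had 0.0161 and 0.0717 CPM in WT and 0.142 and 0.296 CPM in KO, a log2 change of 2.30 ± 0.63 (edgeR adjusted p = 0.00716). The difference of the 2 changes was 3.04 ± 0.65 (edgeR adjusted p = 0.00773). It rests on 1, 4, 9 and 17 reads in post-meiotic cells, did not pass in 7 of the 8 fits that left out 1 library, and did not pass by DESeq2. The KO post-meiotic libraries also held more of the summed meiotic markers, 711 to 746 CPM against 616 to 620 CPM in WT, and the part of this in the value was not tested. The host 1700012A16Rik fell in KO meiotic cells (-0.31, edgeR adjusted p = 1.91e-05), had 0.07 in post-meiotic cells, and its difference between the stages also passed (0.38 ± 0.06, edgeR adjusted p = 0.0011).

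Hosts were examined because a member and its host are made from 1 transcript. A host, taken as the shortest gene on the same strand that contains the member and has a mean of 10 or more reads, was found for 61 members, 49 genes in all: 59 of the members lay in an intron and 2 overlapped an exon, and 54 were in protein-coding genes, among them 12 in ribosomal protein genes. In the WT transition 29 of the 49 hosts fell and 4 rose (all genes 32.4% lower and 29.6% higher). Counted per member, the host fell for 39 members and rose for 5, whereas 16 of the 61 members fell. Of these 16, 10 fell together with their host, a share close to that of the 39 among all 61. Another 5 fell while the host did not pass, and Snord100 fell while its host Rps12, a gene of the small ribosomal subunit, rose (0.17). Over the 61 pairs the log2 changes were hardly related in the WT (Spearman rho -0.06, Pearson r 0.13) or the KO transition (-0.07 and 0.04), given as a description since members of 1 host share its value and most members have few reads. The median was -0.51 for members and -0.44 for hosts. In KO over WT of post-meiotic cells 46 of the 61 members had a higher log2 change than their host, with medians of 0.32 and -0.04. Of the 9 members with no host 4 were above 0 in this comparison, with a median of -0.09. In the KO transition 6 of these 9 were below 0, with a median of -0.49.

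Both kinds of mismatch were seen in named pairs. Snhg3, a non-coding gene of which the U17 RNAs are the known product, fell from 38.9 to 9.92 CPM in WT (-1.97, edgeR adjusted p = 5.71e-15), while its intronic member Snora73b stayed at 4.30 ± 0.113 and 4.14 ± 0.310 CPM (log2 change -0.05 ± 0.13). Snora73a, whose 205 bases overlap an annotated exon of Snhg3 over 159 bases, fell with the host (-2.32). SNORA2 fell less (-1.24) than its host Cks2 (-3.45), a kinase subunit of cell division. The opposite was seen for SNORA70 in Csda, where the member fell (-3.0) and the host did not pass (-0.01), for Snora20 in the chaperonin gene Tcp1 (-1.81 and -0.07) and for Scarna9 in 5830418K08Rik (-0.58 and 0.11). Per kb, 49 of the 61 members lay below the exons of their host, with a median ratio of member to host of 0.119 over all members, while 5 of the 6 Cajal body genes with a host lay above it, with a median ratio of 20.5. Of the 12 decreases beyond 1 in the WT transition 11 were of members that lay below their host and 1, SNORA58 in Alkbh1, was of a member above it. Reads of an unspliced host transcript that cross a member may be counted on it, and how many there are was not tested.

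**Figure D3:**
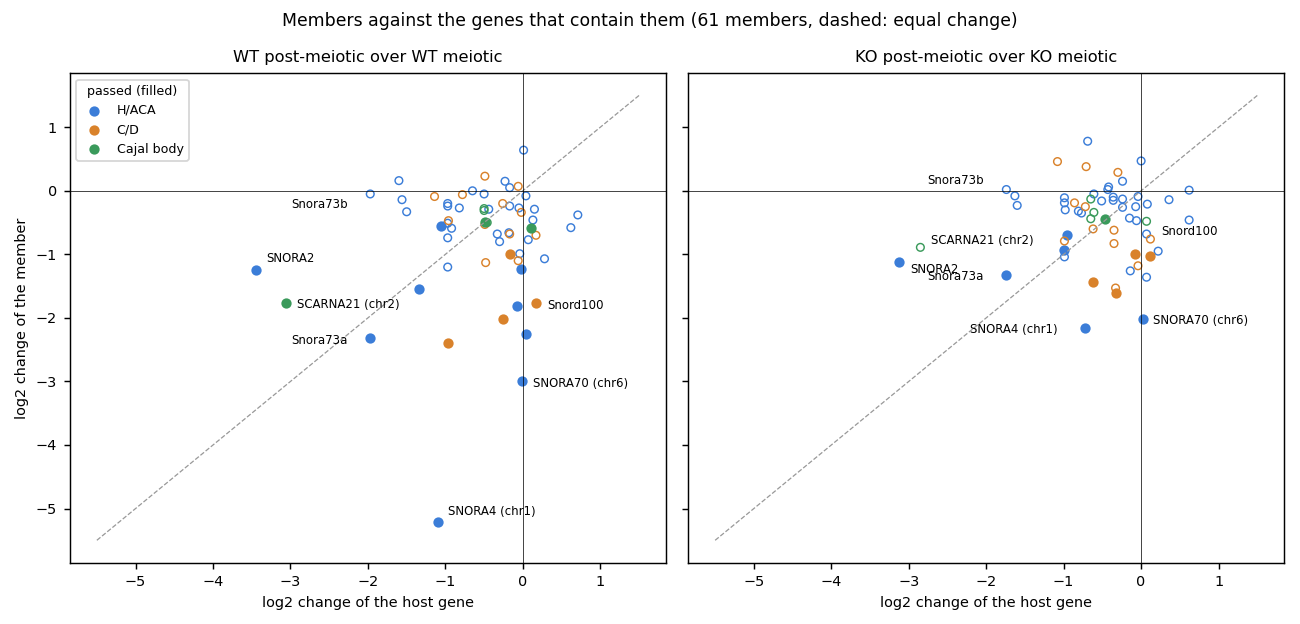
Log2 change of each member (vertical) against that of its host gene (horizontal) in the WT and KO transitions, for 61 members coloured by class, filled where the member passed. The points do not follow the dashed line of equal change: Snora73b stays near 0 at a host change of -1.97 in WT, and SNORA70 of chromosome 6 falls by 3.0 at a host change of -0.01.

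Members of 1 name family in different places had different log2 changes. Whether each copy yields a mature RNA was not tested. The ratio of reads on Snora73a to those on Snora73b was 0.172 and 0.147 in WT meiotic, 0.084 and 0.119 in KO meiotic, 0.0332 and 0.0320 in WT post-meiotic libraries, and for KO post-meiotic cells it was 0.054 and 0.0301, so each post-meiotic value lay below each meiotic one. Snora73a overlaps an annotated exon of Snhg3, which also fell, while Snora73b is intronic. The part of host reads in this ratio was not tested. SNORA4 in Eif4a2 on chromosome 16, the gene of a translation initiation factor, had 35 and 16 reads in WT meiotic and 19 and 13 in WT post-meiotic libraries (log2 change -0.59 ± 0.38), against -5.21 for the copy on chromosome 1. SNORA70 in Rg9mtd1 on chromosome 16 had 28 and 26 against 35 and 45 reads (0.64 ± 0.30), and the copy on chromosome 6 -3.0. The C/D pairs of 1 host have few reads and wide standard errors, and of the values given here those of SNORD58 in WT lay furthest apart. The SNORD58 copies in Rpl17 had -0.20 ± 0.56 (copy 1) and -2.02 ± 0.47 (copy 2) in WT and -1.53 ± 0.59 and -1.61 ± 0.40 in KO. Snord70 and SNORD70 in Nop58 had log2 changes of -0.68 ± 0.39 and -0.99 ± 0.31 in WT and -0.83 ± 0.36 and -0.62 ± 0.28 in KO. Snord49a and Snord49b in 2410006H16Rik had 0.23 ± 0.49 and -0.53 ± 0.33 in WT. Differences between copies were not tested.

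**Figure D4:**
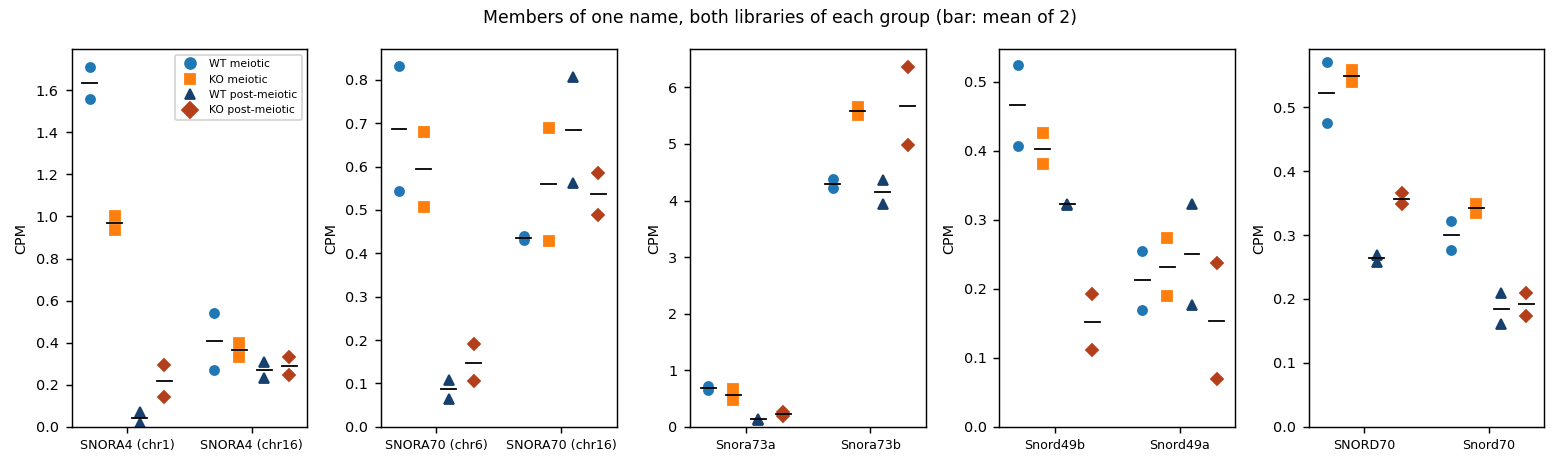
CPM of 5 pairs of members with 1 name, with 1 point for each library, a colour for each group and a bar for the mean of 2 libraries. SNORA4 of chromosome 1, SNORA70 of chromosome 6 and Snora73a drop in all 4 post-meiotic libraries, while the partners had WT log2 changes of -0.59 (SNORA4 of chromosome 16), 0.64 (SNORA70 of chromosome 16) and -0.05 (Snora73b). Snora73a overlaps an annotated exon of its host Snhg3, which also fell.

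The introns of Taf1d on chromosome 9 carry 6 members, and the reads counted on them were unequal. These counts cannot be divided into mature RNA and unspliced host transcript, so they do not give the amounts of the products. Per kb the order was SNORA32 with 60.7, SNORA8 with 6.52, SNORA25 with 6.01, SNORD5 with 3.56, SNORA18 with 1.57 and SNORA1 with 1.28 CPM per kb. Taf1d itself fell in both transitions (-0.97, edgeR adjusted p = 4.62e-10 in WT and -0.99, edgeR adjusted p = 3.19e-10 in KO). SNORD5 fell in WT (-2.40) and SNORA8 in KO (-0.93). SNORA18 had -1.20 ± 0.46 in WT and -0.94 ± 0.41 in KO, and SNORA1 had -0.51 ± 0.56 and -1.04 ± 0.47, neither passing. SNORA32 and SNORA25 had -0.20 ± 0.11 and -0.24 ± 0.26 in WT, and SNORA25 is the member without a unique stretch.

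The genes for proteins that build and use these RNAs were counted by list, beside 32.4% of all genes lower and 29.6% higher in the WT and 31.5% and 29.5% in the KO transition. The lists were fixed with earlier results of these data known. Of 4 C/D core genes 3 fell in WT and 4 in KO: the methyltransferase Fbl (-0.53 and -1.09), Nop56 (-0.53 and -0.88) and Nop58 (-0.17 and -0.35) in both, and Nhp2l1 in KO (-0.22). Of 4 H/ACA core genes 2 fell in WT and 3 in KO. Gar1 fell at both (-1.04 and -1.48) as did Nop10 (-0.40 and -0.51), Nhp2 fell in KO (-0.53), and Dkc1, the pseudouridine synthase, did not pass (-0.14 and -0.37). Of 10 assembly factors 7 fell and 1 rose in WT, and 8 fell and 1 rose in KO. Rpap3 fell by 2.24 and Ruvbl1 by 1.05 on the log2 scale, and Shq1, a chaperone of dyskerin, rose (0.61). Of 6 genes for Cajal body proteins 2 fell and 2 rose in WT, and 4 fell and 2 rose in KO, with Wrap53, which brings Cajal body RNAs to their place, falling (-1.18) and coilin (Coil), the marker protein of the body, rising (0.38). Of 12 genes of ribosomal RNA synthesis 11 fell in WT and 11 in KO, Rrn3 by 1.80 and Taf1c by 1.78 in WT. Among 8 genes of trimming and decay 4 rose and 2 fell in WT, and 1 rose and 3 fell in KO, the riser Papd5 (0.69) being a poly(A) polymerase of the nuclear decay pathway and the debranching enzyme Dbr1 falling (-1.09). Of 11 non-coding hosts tested 8 fell and 1 rose in WT, and 5 fell and 1 rose in KO. Snhg7 had -1.92, Snhg12 -1.81 and Snhg5 -1.22, and Gas5, host of many C/D RNAs, fell by 0.23. Of the 8 core genes, Nop56 (0.58) and Dkc1 (0.52) rose in meiotic KO cells (all genes 8.98% higher), and Nop58 (-0.24), Nhp2l1 (-0.24) and Nhp2 (-0.51) fell in post-meiotic KO cells (all genes 11.6% lower).

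Some snoRNA families are also listed among the repeat families, whose counts the authors made separately. Values are reads per 1000000 repeat counts (RPM), without a test. U17, the family of SNORA73, had 78.5 ± 3.97 RPM in WT meiotic, 92.2 ± 3.32 in KO meiotic, 84.6 ± 0.347 in WT post-meiotic and 95.5 ± 7.07 in KO post-meiotic cells (SD, n = 2). U3, a C/D RNA needed for the first cuts of the ribosomal RNA precursor, had 41.5 ± 4.59, 51.3 ± 4.24, 49.7 ± 0.516 and 49.0 ± 2.19 RPM in the same order. U14 had 2.64 ± 0.521, 4.68 ± 0.0251, 2.76 ± 0.290 and 3.93 ± 0.241 RPM, with each KO library above each WT library of its stage. U17 showed the same order of KO and WT at both stages. U13, another C/D RNA, did not: it had 3.11 ± 0.667, 2.86 ± 0.301, 3.75 ± 1.06 and 2.91 ± 0.657 RPM, and the separate entry U13_ had 2.29 ± 0.362, 1.84 ± 0.178, 1.25 ± 0.277 and 2.18 ± 0.149 RPM. The direction between stages depends on the scale, since repeat counts were 18.8 to 19.5% of the tested gene counts in the meiotic libraries of WT and 14.9 to 15.7% in the post-meiotic ones. As CPM of the genes, WT meiotic cells had 14.7 ± 0.602 and WT post-meiotic cells 13.9 ± 0.359 for U17, and 7.79 ± 0.787 and 8.18 ± 0.160 for U3, while each KO library of U17 and U14 again lay above each WT library of its stage. How many of all repeat families keep KO and WT apart in this way was not counted, so no KO effect is read from this order. U8 had 2 to 8 reads per library. The U17 reads may be in part those counted on the SNORA73 genes, so the families are not independent of them.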

How the data were processed

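RNA was measured by stranded total RNA-seq in 8 libraries, 2 in each of 4 groups. Per the labels and the methods, the authors aligned single-end reads to mm9 with TopHat2 2.0.14, kept unique alignments and deposited raw counts per gene made with HTSeq 0.6.1, and separate counts per repeat family; the counting mode is not given in the sources used here. The library did not select small RNAs, and counts on a member cannot be divided into mature RNA and unspliced host transcript. From the counts, edgeR 4.0.16 (R 4.3.3) tested 20412 genes with TMM scaling, a filter on low counts and the robust quasi-likelihood test over 4 group means, with Benjamini-Hochberg adjustment over all of them and a limit of 0.01. CPM uses the same scaling. DESeq2 1.42.0 and other alternatives were computed. The named genes were, per comparison, class and direction, the passing members of lowest adjusted p (at most 4), the 5 highest per kb, all Cajal body genes, those next to the minimum, their hosts and the listed protein and host genes. Other members named, such as second copies and the Taf1d group, were chosen after their values were seen, as was the use of the repeat families. Members and lists were chosen with earlier results of these data known. Sequences and annotation are from the NCBIM37 (mm9) reference of annotation release 65.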

Additional observations from a re-analysis of the deposited data

Results flagged for a closer look

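The KO effect on SNORA4 of chromosome 1 differed between the stages by 3.04 ± 0.65 on the log2 scale (edgeR interaction term, adjusted p = 0.00773), from -0.75 in meiotic to 2.30 in post-meiotic cells. Over 14 alternatives the difference ran from 2.28 to 4.33, with adjusted p from 0.000232 to 0.0818, and it passed in 6. Both KO post-meiotic libraries, with 9 and 17 reads, lay above both WT post-meiotic libraries, with 1 and 4 reads.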

How the results depend on the processing

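Of 29 named changes that passed, 9 passed under every alternative computed and 0 changed sign; of 1651 alternative values of named changes that did not pass, 78 had the other sign and 48 passed. The count in the WT transition was 18, with 10 by DESeq2 and 10 to 15 when a library was left out (10 without WT meiotic replicate 1). In the KO transition it was 13, with 6 by DESeq2, 8 with the limit of 1 on the log2 change, and 6 to 14 when a library was left out (6 without KO meiotic replicate 2 and 6 without KO post-meiotic replicate 1). For KO over WT in meiotic cells it was 1, with 4 without the filter, 2 with only the libraries compared, 0 with the limit on the log2 change and 0 to 2 when a library was left out. For KO over WT in post-meiotic cells it was 3, with 5 by library totals, 5 without the filter, 0 by DESeq2, 1 with only the libraries compared, 1 with the limit on the log2 change and 0 to 4 when a library was left out. The difference between stages had 1, with 0 by DESeq2 and 0 to 1 when a library was left out. The causes were not tested. A fit of only the compared libraries held 57 to 69 members. With a minimum of 50 reads 17 members would be reported, and with the longest host in place of the shortest the median host change in the WT transition was -0.30 in place of -0.44. By library totals the H/ACA medians were -0.55 in the WT and -0.32 in the KO transition, and the C/D medians -0.74 in the WT transition and 0.53 in KO over WT of post-meiotic cells.

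Same-numbered libraries deviated together little, with correlations of -0.0616 to 0.109. The highest were those between the stages of 1 genotype, 0.109 in WT and 0.0975 in KO. Correlations of this size cannot show whether libraries share a mouse, and the numbers were not taken as pairs. With the replicate block the counts were 18, 14, 2, 3 and 1 in the order above, and with the block within genotype 20 and 13 in the transitions. Of the named calls SNORD101 was lost with either block and Scarna9 with the block within genotype. For the repeat families, scaling by gene counts was chosen after seeing the data and moved the log2 ratio of WT post-meiotic to WT meiotic cells from 0.11 to -0.08 for U17 and from 0.26 to 0.07 for U3. Means of 10 to 50 reads limit 53 of the 70 members, for which a change must be large to pass.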

Other observations

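Other small RNA genes with a mean of 10 or more reads also passed as lower more often than as higher in the WT transition. Over all genes 32.4% were lower and 29.6% higher, and in none of the classes below did the share of lower genes exceed that. Of 27 spliceosomal and other snRNA genes 1 passed as higher and 4 as lower (median log2 change -0.29), of 32 miRNA genes 1 as higher and 10 as lower (-0.18), and of 48 genes of the class misc_RNA 1 as higher and 6 as lower (-0.36). In KO over WT of post-meiotic cells the medians were -0.12, 0.00 and 0.05 in that order. By sign 16 of the 27, 17 of the 32 and 40 of the 48 (83.3%) were below 0 in the WT transition, beside 82.9% of the members. No comparison between the classes was tested.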
